A study of Mus musculus with 6 samples.

Results

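A set of 55 well-expressed genes was examined whose read counts in mammary epithelial cells (MECs) without oestrogen receptor α (ERα) showed the smallest decreases that the deposited tables hold for abundant genes. They were drawn from 651 genes that the authors listed as differing between the genotypes. A gene was taken if its mean count was at least 1000 reads in WT.GFP+ MECs, if the mean count in ERα-/-.GFP+ MECs was 0.40 to 0.60 of that, and if its name did not begin with one of a set of prefixes for keratins, collagens, laminins, cadherins, ion transporters and channels, guidance and Wnt genes and several families of transcription factors. The rule therefore used the counts of both genotypes, and the lower counts of the members in ERα-/-.GFP+ MECs are a description and not a finding.

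The study examined what ERα and its activation domains do in the mammary epithelium. Its RNA sequencing sought a molecular basis for the traits of MECs without ERα, and further evidence on stem cell function, in cells from pregnant hosts. MECs were taken from WT.GFP+ females and from littermates with a germ-line loss of ERα (ERα-/-.GFP+), both of which carry an EGFP transgene under the chicken β-actin promoter. Cells of the 2 genotypes were placed by intraductal injection in opposite glands of NSG mice, an immunodeficient strain without T, B or NK cells of its own. GFP+ cells were sorted from the glands of pregnant hosts, glands having been pooled for the cell suspension, and RNA was sequenced from 3 WT.GFP+ and 3 ERα-/-.GFP+ samples. Both groups thus shared the host strain, the pregnancy, the transgene and the sort, and differed in the ERα genotype of the donor. The paper reports altered steroid levels in ERα-/- females. It also reports that their MECs had shifted CD24 and CD49f and established less well in the ducts of nulliparous hosts. Such differences come with the genotype and cannot be told apart here from the loss of ERα in the sequenced cells.

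For each listed gene the tables give 1 mean per genotype, as raw reads and as reads scaled to 1000000 per library (CPM) on the log2 scale. Values of single samples were not used here. The authors' own test results in the tables were not used here either. The means alone give no spread between replicates, no standard error and no test, and every value below is a mean of 3 samples. The exact binomial intervals quoted cover counting error only. The tables name the groups as selections, and which selection is which genotype follows from the direction that the study states. The direction is hence not an independent result. Esr1, the targeted gene, is in neither table and could not check it. In sorted bulk cells, fewer cells of a type and less RNA per cell cannot be told apart.

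The mammary epithelium has an inner luminal layer, part of which expresses ERα, and an outer basal layer of contractile myoepithelial cells that rest on the basement membrane. Hormone-sensing luminal cells act on their neighbours through secreted ligands. Growth factor receptors, cell-matrix adhesions, the actin cytoskeleton and the Hippo pathway, which reads cell shape and tension through the transcriptional coactivator Yap1, all meet at the cell surface and at focal adhesions.

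All 55 genes had a lower mean CPM in ERα-/-.GFP+ MECs, as the limits on the counts imply. Of the 651 listed genes 86.9% were lower, and of the 220 listed genes with at least 1000 reads in WT.GFP+ MECs 76.8% were lower, namely 169 lower and 51 higher. Of these 169, 102 had a count ratio (ERα-/-.GFP+ over WT.GFP+) under 0.40 and 67 a count ratio of 0.40 or more. The rule left out 12 of the 67 by name, among them Perp, Nfib, Lamb3, Acta1, Klf5, Maff, Itga3, Tcf7l2, Epha2, Nfix and Celsr2.

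The members were close to each other in ratio and far apart in number of reads. The count ratio ran from 0.40 to 0.522 with a median of 0.449. The libraries of ERα-/-.GFP+ MECs were deeper by estimate, with about 29300000 reads against 27200000. The estimate divides mean count by mean CPM in listed genes, and spread between samples can raise it. How much of the difference comes from such spread was not tested. The CPM scale removes differences in depth, and its means are geometric where the mean counts are arithmetic. Mean counts scaled for depth alone, estimated from genes of at least 100 reads, had a median ratio of 0.413. On the CPM scale the ratio ran from 0.356 to 0.494 with a median of 0.405. It was under 0.40 in 25 members, from 0.40 to 0.45 in 22 and at least 0.45 in 8. The mean level in WT.GFP+ MECs ran from 37.6 to 1050 CPM with a median of 69.2 CPM, and in ERα-/-.GFP+ MECs from 15.4 to 512 CPM with a median of 30.5 CPM.

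**Figure D1:**
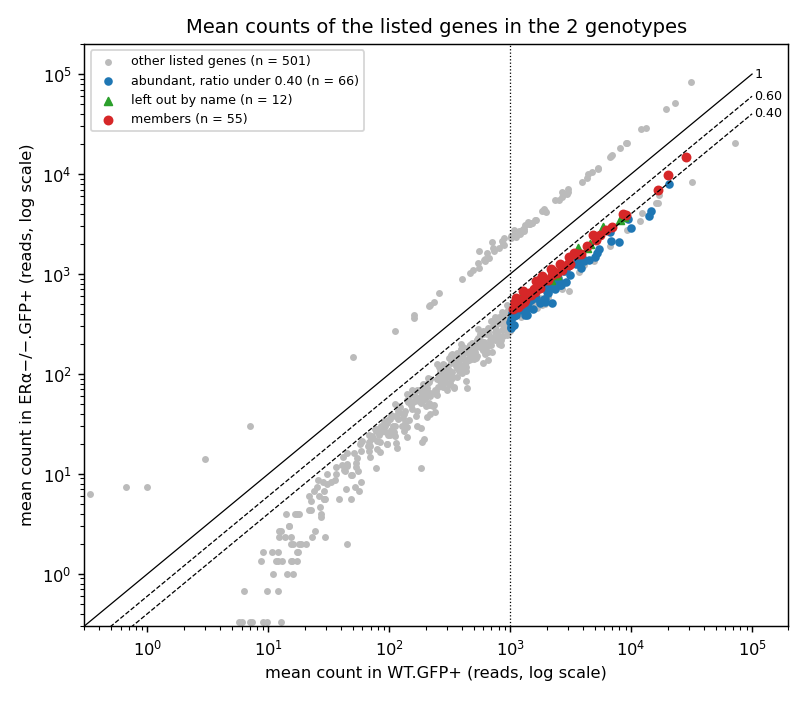
Mean count of each listed gene in WT.GFP+ MECs (x axis, reads, log scale) against that in ERα-/-.GFP+ MECs (y axis, reads, log scale). Red points are the 55 members, blue points the 66 abundant genes of a lower ratio, green triangles the 12 genes left out by name and grey points other listed genes with reads in both genotypes. The solid line marks equal counts, the dashed lines ratios of 0.60 and 0.40, and the dotted line 1000 reads. Members lie in a narrow band above the line of 0.40, and no gene with 1000 reads lies between a ratio of 0.522 and 2.09.

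The limits of the rule were met on one side only. Nrep, Eogt and Amotl1 had the lowest count ratios inside, at 0.40, 0.402 and 0.403. Ripk4, Cdcp1 and Pdgfa lay just outside, at 0.399, 0.396 and 0.390. At the upper end Ptov1, Adk and Errfi1 each had a count ratio of 0.522. The limit of 0.60 was never reached, because the tables list only genes past the authors' thresholds and the next abundant gene, one higher in ERα-/-.GFP+ MECs, had a count ratio of 2.09. Among listed genes with at least 1000 reads, "mildly reduced" thus means the smallest decrease by raw count. On the CPM scale the limit is less sharp, since Bcam, inside, had a ratio of 0.356 and Pdgfa, outside, one of 0.372. Tmem158, Gm37358 and Fam83g had the fewest reads in WT.GFP+ MECs, 1045, 1089 and 1092. Magi1 and Mtss1 lay just under the count limit at 995 and 991 reads.

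Together the members held 0.739% of the reads of WT.GFP+ MECs and 0.315% of those of ERα-/-.GFP+ MECs, with summed mean counts of 201033 and 92522 reads. The 5 highest members held 41.3% of the members' reads with ERα and 42.7% without it. The rule held the ratio to a narrow band while the levels spanned a wide range, which fixes that the order of the members was nearly kept: the 10 highest by CPM were the same 10 genes in both genotypes and Spearman's correlation of the CPM over the 55 genes was 0.98. The ratio had little relation to level (Spearman's correlation -0.11) or to exonic length (-0.12) over the same 55 genes. These are correlations across genes that share libraries, given as description.

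**Figure D2:**
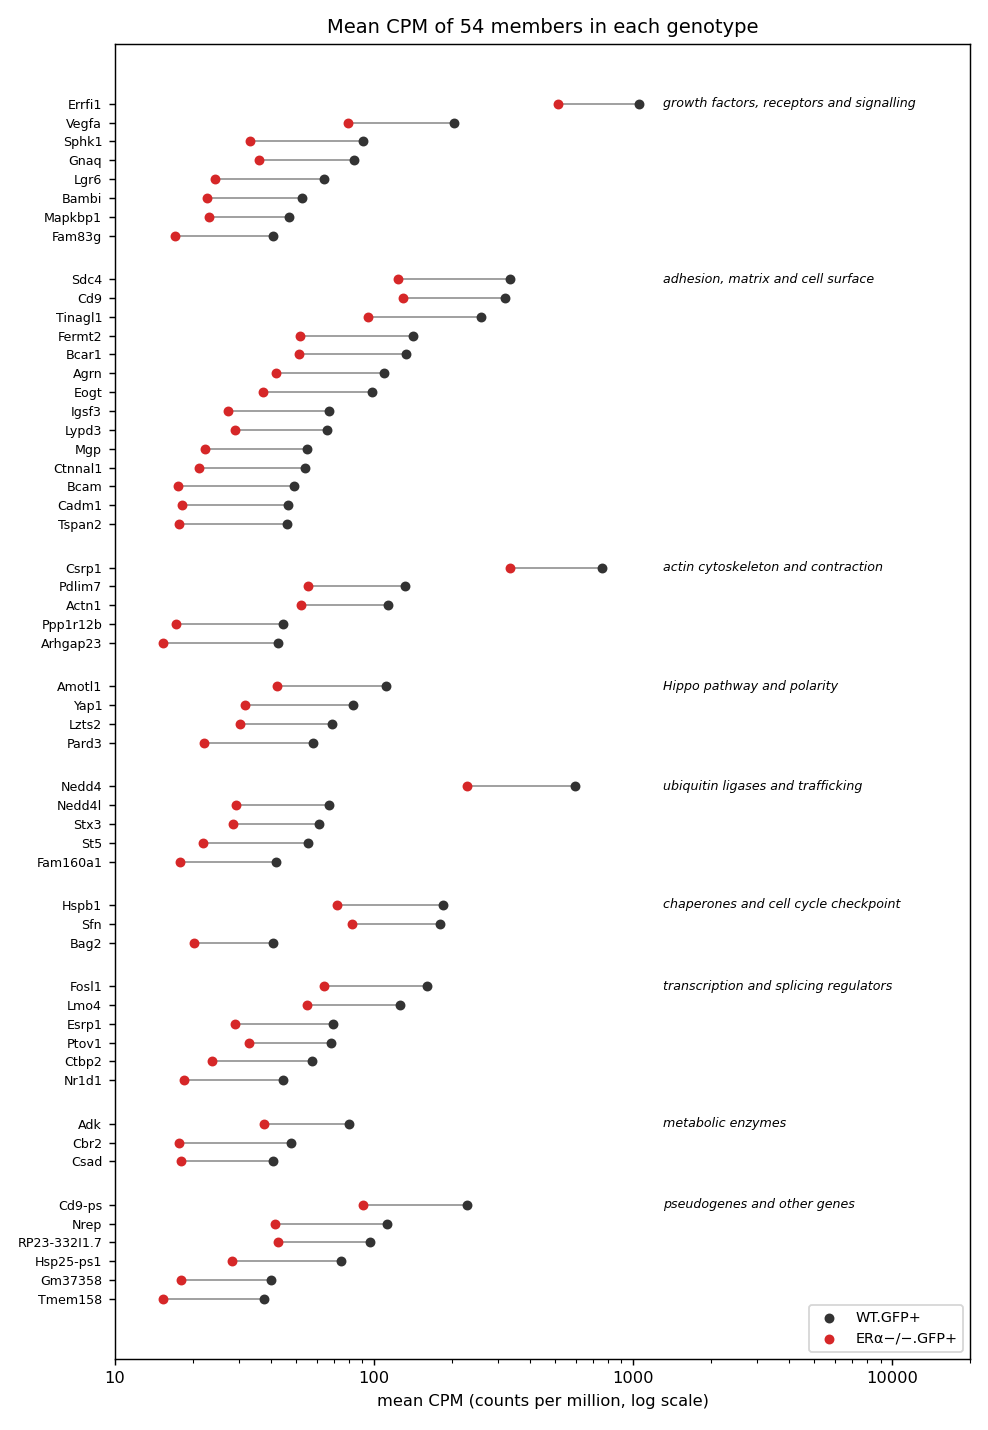
Mean CPM (x axis, log scale) of 54 of the 55 members in WT.GFP+ (black) and ERα-/-.GFP+ (red) MECs, grouped by role and ordered by level. Each point is a mean of 3 samples with no error available. The lines joining the points are of similar length, from a CPM ratio of 0.356 in Bcam to 0.494 in Bag2.

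Among growth factors, receptors and signalling genes, Errfi1 took the most reads of all members. Errfi1 (Mig6), an inducible feedback inhibitor of the epidermal growth factor receptor family, lies at chr4:150853919-150868892 on the plus strand (GRCm38). It had a mean of 28374 reads (1050 CPM) in WT.GFP+ against 14822 reads (512 CPM) in ERα-/-.GFP+ MECs, a CPM ratio of 0.488. Its counting interval for the count ratio was 0.516 to 0.528, so that the counts themselves fixed the ratio closely and the spread between samples is the part not known. Vegfa, the vascular endothelial growth factor, had 5560 reads on average with ERα and 2460 without it, which is 203 and 79.6 CPM (CPM ratio 0.392). Lgr6, a receptor for R-spondins that raises the response to Wnt ligands, had mean counts of 1750 (WT.GFP+) and 726 (ERα-/-.GFP+) reads and mean levels of 64.0 and 24.3 CPM (CPM ratio 0.379). Fam83g, which binds casein kinase 1 and BMP signalling proteins, was among the 3 members of lowest count, with 1092 and 514 reads, 40.7 and 17.0 CPM and a CPM ratio of 0.419. The others of this group were Sphk1, which makes sphingosine 1-phosphate, at 90.7 and 33.2 CPM, Gnaq, a G protein α subunit, at 83.7 and 36.1 CPM, Bambi, a decoy receptor of the TGF-β family, at 52.6 and 22.6 CPM, and the JNK-binding scaffold Mapkbp1 at 47.0 and 23.2 CPM (WT.GFP+ first). Sphk1 had one of the lower ratios of all members (0.366) and Mapkbp1 one of the higher (0.493), so the group spanned most of the members' range.

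Adhesion, matrix and cell surface genes formed the largest group, with 14 members and a median CPM ratio of 0.385. Sdc4, a heparan sulphate proteoglycan of focal adhesions, had a mean of 9059 reads (334 CPM) in WT.GFP+ against 3924 reads (124 CPM) in ERα-/-.GFP+ MECs (CPM ratio 0.372). Cd9, a tetraspanin that associates with integrins, had 8585 reads on average with ERα and 3974 without it, which is 320 and 130 CPM (CPM ratio 0.405). Tinagl1, a secreted matricellular protein of basement membranes, had mean counts of 6936 (WT.GFP+) and 2954 (ERα-/-.GFP+) reads and mean levels of 259 and 94.9 CPM (CPM ratio 0.366). By reads these 3 came next after Errfi1, Csrp1 and Nedd4. Fermt2 (kindlin-2), which activates integrins from inside the cell, had a mean of 3819 reads (142 CPM) in WT.GFP+ against 1589 reads (51.9 CPM) in ERα-/-.GFP+ MECs (CPM ratio 0.367). Bcam, the Lutheran receptor for laminin, had 1322 reads on average with ERα and 547 without it, which is 49.3 and 17.6 CPM, and its CPM ratio of 0.356 was the lowest of the 55. Agrn, the basement membrane proteoglycan agrin, had mean counts of 3009 (WT.GFP+) and 1263 (ERα-/-.GFP+) reads and mean levels of 109 and 41.9 CPM (CPM ratio 0.385). Eogt, which adds O-linked N-acetylglucosamine to extracellular domains, had a mean of 2703 reads (98.3 CPM) in WT.GFP+ against 1085 reads (37.1 CPM) in ERα-/-.GFP+ MECs (CPM ratio 0.378). The integrin-signalling adaptor Bcar1 (p130Cas) was at 133 and 51.4 CPM and the calcification inhibitor Mgp at 55.2 and 22.3 CPM. The other 5 surface or junction genes, Igsf3, Lypd3, Ctnnal1, Cadm1 and Tspan2, had CPM ratios of 0.385 to 0.443. Lypd3, a GPI-anchored protein of stratified epithelia, had the highest of the group and a mean of 65.8 and 29.1 CPM.

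Of 6 genes of the actin cytoskeleton, Csrp1 took the most reads, and only Errfi1 had more among all members. Csrp1, a LIM protein that binds α-actinin and zyxin, lies at chr1:135720061-135752232 on the plus strand and had 20341 reads on average with ERα and 9802 without it, which is 755 and 335 CPM (CPM ratio 0.444). Actn1, the α-actinin that crosslinks actin at adhesions, had mean counts of 3073 (WT.GFP+) and 1491 (ERα-/-.GFP+) reads and mean levels of 114 and 52.0 CPM (CPM ratio 0.459). Pdlim7, a PDZ and LIM protein of actin filaments, had a mean of 3524 reads (132 CPM) in WT.GFP+ against 1602 reads (55.5 CPM) in ERα-/-.GFP+ MECs (CPM ratio 0.422). Ppp1r12b, a targeting subunit of myosin phosphatase, had 1228 reads on average with ERα and 499 without it, which is 44.6 and 17.3 CPM (CPM ratio 0.387). Arhgap23, a GTPase-activating protein, was at 42.7 and 15.4 CPM. Arhgap23 had the lowest ratio of this group at 0.361 and Actn1 the highest.

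The group named for the Hippo pathway and cell polarity held 4 genes with a median CPM ratio of 0.383. Yap1, the coactivator that the pathway restrains, had mean counts of 2232 (WT.GFP+) and 976 (ERα-/-.GFP+) reads and mean levels of 82.6 and 31.8 CPM (CPM ratio 0.385). Amotl1, an angiomotin that binds Yap1 at junctions, had a mean of 3076 reads (111 CPM) in WT.GFP+ against 1240 reads (42.3 CPM) in ERα-/-.GFP+ MECs (CPM ratio 0.381). Pard3, a scaffold of the apical polarity complex, had a ratio of 0.378 close to both. The leucine zipper protein Lzts2, whose place in this group is uncertain, had one of 0.442.

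Nedd4 and Nedd4l, paralogous HECT ubiquitin ligases that act on membrane proteins, were both members. Nedd4 had 16633 reads on average with ERα and 6984 without it, which is 597 and 228 CPM (CPM ratio 0.382), and Nedd4l had mean counts of 1812 (WT.GFP+) and 887 (ERα-/-.GFP+) reads and mean levels of 67.3 and 29.4 CPM (CPM ratio 0.437). Per kilobase of exon, Nedd4 was at 54.4 and Nedd4l at 3.81 CPM per kb in WT.GFP+ MECs. The trafficking genes St5, Stx3 and Fam160a1 had CPM ratios of 0.393, 0.469 and 0.426. Stx3 is a syntaxin of the apical membrane, and St5 has a domain of Rab activators.

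Hspb1 and Sfn, a small heat shock protein and 14-3-3σ, which holds cells at the G2 checkpoint, were among the 10 members with the most reads. Hspb1 had a mean of 5108 reads (185 CPM) in WT.GFP+ against 2192 reads (72.0 CPM) in ERα-/-.GFP+ MECs (CPM ratio 0.390). Sfn had 4796 reads on average with ERα and 2433 without it, which is 180 and 82.2 CPM (CPM ratio 0.458). The co-chaperone Bag2 had mean counts of 1115 (WT.GFP+) and 571 (ERα-/-.GFP+) reads and mean levels of 40.8 and 20.1 CPM, and its CPM ratio of 0.494 was the highest of the 55.

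The transcription and splicing regulators were Fosl1, Lmo4, Esrp1, Ptov1, Ctbp2 and Nr1d1, whose CPM ratios lay between 0.401 and 0.481. Fosl1 (Fra-1), a partner of Jun in AP-1, had a mean of 4324 reads (160 CPM) in WT.GFP+ against 1918 reads (64.0 CPM) in ERα-/-.GFP+ MECs (CPM ratio 0.401). Lmo4, a LIM-only cofactor, was at 126 and 55.3 CPM, and the epithelial splicing regulator Esrp1 had a CPM ratio of 0.419. Ptov1 had 1830 reads on average with ERα and 955 without it, which is 68.3 and 32.8 CPM (CPM ratio 0.481). The corepressor Ctbp2 and the circadian repressor Nr1d1 were at 57.8 and 23.7 CPM and 44.5 and 18.4 CPM. Ctbp2 was the only member whose annotated span overlapped that of another listed gene, Fgfr2, which lies on the same strand and was also lower.

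Of 3 metabolic enzymes, adenosine kinase (Adk) had mean counts of 2155 (WT.GFP+) and 1124 (ERα-/-.GFP+) reads and mean levels of 79.7 and 37.7 CPM (CPM ratio 0.473). Carbonyl reductase 2 (Cbr2) had a ratio of 0.369 and Csad, which makes the taurine precursor hypotaurine, one of 0.440. Nrep, a neuronal regeneration-related protein, had a mean of 3119 reads (113 CPM) in WT.GFP+ against 1249 reads (41.3 CPM) in ERα-/-.GFP+ MECs (CPM ratio 0.367). Tmem158, a membrane protein first described as induced by Ras, had 1045 reads on average with ERα and 443 without it, which is 37.6 and 15.4 CPM (CPM ratio 0.408).

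**Figure D3:**
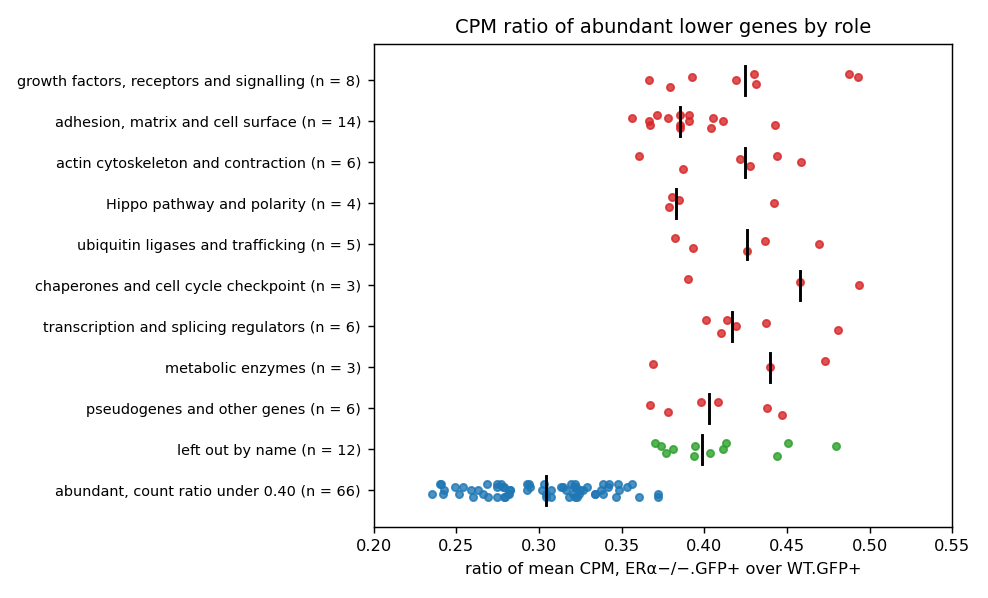
Ratio of mean CPM, ERα-/-.GFP+ over WT.GFP+ (x axis), for the members by role (red), the 12 abundant genes left out by name (green) and the 66 abundant genes with a count ratio under 0.40 (blue). Each point is a gene and each vertical bar a median, with no error available. The medians of the 9 roles lie between 0.383 and 0.458, with wide overlap of the points.

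The remaining 4 members, Cd9-ps, RP23-332I1.7 (Gm5279 in the annotation), Hsp25-ps1 and Gm37358, are processed pseudogenes, that is, intronless copies of a spliced messenger RNA. The coding gene closest in sequence to each was itself a member. Cd9-ps matched Cd9 over 636 aligned bases with 33 that differ (94.8% identity), RP23-332I1.7 matched Sfn over 737 bases with 29 that differ (96.1%), Hsp25-ps1 matched Hspb1 over 630 bases with 4 that differ (99.4%), and Gm37358 matched Csrp1 over 479 bases with 64 that differ (86.6%). How the authors' counting treated reads that fit several places is not given in the sources used here.

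A stretch of 85 coding bases, the length of 1 read, is shown for each pair as an example of what a read could use to tell the copies apart. It is the stretch without gaps closest to the middle of the coding sequence, and other stretches differ at more or fewer bases. The share of 85-base stretches with at most 2 differences was 9.19% for Cd9-ps and 25.3% for RP23-332I1.7. It was 96.0% for Hsp25-ps1 and 0% for Gm37358. The coding gene is read from its reference transcript and the pseudogene from its own strand of GRCm38, 5′ to 3′, and capitals mark the bases that differ. The Cd9-ps stretch lies at chr7:41682938-41683022 on the minus strand and differs from Cd9 at 6 bases.
Cd9: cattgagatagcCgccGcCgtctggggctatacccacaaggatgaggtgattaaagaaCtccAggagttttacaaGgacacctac
Cd9-ps: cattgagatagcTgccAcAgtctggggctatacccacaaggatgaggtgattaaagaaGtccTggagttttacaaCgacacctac
The RP23-332I1.7 stretch lies at chr3:107343283-107343367 on the plus strand and differs from Sfn at 1 base.
Sfn: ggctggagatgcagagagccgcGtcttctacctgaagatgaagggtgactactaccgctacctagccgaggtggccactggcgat
RP23-332I1.7: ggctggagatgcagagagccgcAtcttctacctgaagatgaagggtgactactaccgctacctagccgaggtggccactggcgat
The Hsp25-ps1 stretch lies at chr13:45078772-45078856 on the minus strand and differs from Hspb1 at 0 bases, so that a read from it fits both places.
Hspb1: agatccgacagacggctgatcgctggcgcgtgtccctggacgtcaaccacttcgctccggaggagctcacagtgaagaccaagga
Hsp25-ps1: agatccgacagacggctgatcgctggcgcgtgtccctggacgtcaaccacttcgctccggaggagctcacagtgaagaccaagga
The Gm37358 stretch lies at chr3:14384086-14384170 on the minus strand and differs from Csrp1 at 14 bases.
Csrp1: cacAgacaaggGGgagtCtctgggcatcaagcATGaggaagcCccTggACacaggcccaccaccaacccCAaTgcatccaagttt
Gm37358: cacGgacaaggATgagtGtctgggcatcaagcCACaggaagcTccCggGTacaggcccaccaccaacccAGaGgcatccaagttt

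Each pseudogene had a ratio close to that of its coding gene, though the rule already held both genes of a pair to the same range. Cd9-ps had mean counts of 6157 (WT.GFP+) and 2768 (ERα-/-.GFP+) reads and mean levels of 228 and 90.9 CPM, a CPM ratio of 0.398 beside 0.405 in Cd9. Reads of Cd9-ps were 0.717 of those of Cd9 with ERα and 0.696 without it. RP23-332I1.7 had a mean of 2593 reads (96.9 CPM) in WT.GFP+ against 1266 reads (42.5 CPM) in ERα-/-.GFP+ MECs, a CPM ratio of 0.438 beside 0.458 in Sfn, and its reads were 0.541 and 0.520 of those of Sfn. Hsp25-ps1 had 2069 reads on average with ERα and 867 without it, which is 74.9 and 28.3 CPM, a CPM ratio of 0.378 beside 0.390 in Hspb1, and its reads were 0.405 and 0.395 of those of Hspb1. Gm37358 had mean counts of 1089 (WT.GFP+) and 521 (ERα-/-.GFP+) reads and mean levels of 40.1 and 17.9 CPM, a CPM ratio of 0.447 beside 0.444 in Csrp1, and its reads were 0.0535 and 0.0531 of those of Csrp1. The quotient of pseudogene and coding gene reads was thus nearly equal in the 2 genotypes for each of the 4 pairs.

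Whether the reads came from the pseudogene or the coding gene was not tested. The sum of both copies is free of the split only if each shared read was counted once, at either copy. Shared reads that were dropped, counted at each place or given to another gene would change the sum, and their treatment is not known here. Other annotated genes share sequence too, as Gm7850 has 203 20-base words in common with RP23-332I1.7, and Gm9817 has 417 in common with Hsp25-ps1. Summed counts were 14742 and 6742 reads for the Cd9 pair (ratio 0.457), 7389 and 3699 for the Sfn pair (0.501), 7177 and 3059 for the Hspb1 pair (0.426) and 21430 and 10323 for the Csrp1 pair (0.482). Of all 85-base stretches of Hsp25-ps1, 86.8% occur in another annotated gene, and of those of Hspb1 45.4% do. Cd9-ps had 63 bases and Gm37358 32 bases as the longest run equal to its coding gene, shorter than a read, while RP23-332I1.7 had 88. Values of these 8 genes are uncertain as levels of a single locus.

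**Figure D4:**
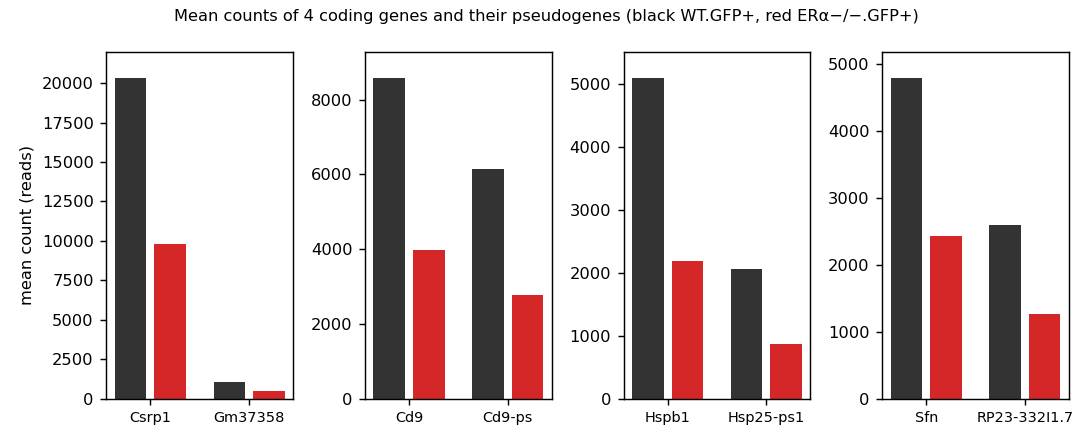
Mean count (y axis, reads, from 0) of 4 coding members and the pseudogene member closest to each, in WT.GFP+ (black) and ERα-/-.GFP+ (red) MECs, with a separate scale per panel and no error available. In each panel both genes are lower in ERα-/-.GFP+ MECs by a similar factor, while the pseudogene ranges from 0.0535 to 0.717 of the coding gene's WT.GFP+ reads.

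Identical 85-base stretches were counted for all members. Of the 55, 28 had some such stretch in common with another annotated gene, but in 3 only was this over 10%, namely Hsp25-ps1, Hspb1 and Fosl1. This measure misses copies that differ at a few bases. It gave 0% for Cd9-ps and Gm37358 and 0.605% for RP23-332I1.7. It therefore cannot say how many other members have a near copy elsewhere. Fosl1 shared 49.4% with Ccdc85b, which overlaps it on the opposite strand. The library kit does not mark strand, so reads of such a pair cannot be told apart. A gene on the opposite strand overlapped 28 of the 55 members.

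Counts and CPM grow with the length of a gene, so the order of members by reads or CPM given above is not an order of transcript levels. Per kilobase of exon, members ran from 2.98 to 386 CPM per kb in WT.GFP+ MECs with a median of 16.2, and from 1.15 to 171 in ERα-/-.GFP+ MECs with a median of 6.96. Csrp1, Cd9-ps and Errfi1 were highest in WT.GFP+ MECs at 386, 351 and 293 CPM per kb. Errfi1, first by CPM, thus came after both per length, and the length used for Cd9-ps is that of its short single exon. Hspb1, Cd9 and Sdc4 followed among coding genes at 179, 157 and 131 CPM per kb, and Ppp1r12b was lowest. Members lay on 17 chromosomes, with 6 on chromosome 4 and 0 on X or Y.

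In the columns used here, the one trace of the spread between samples was the quotient of a gene's mean count and its mean CPM. It would be equal for all genes if each gene kept the same share of the reads in the 3 samples of a genotype. Among members it ran from 26700000 to 28200000 reads in WT.GFP+ MECs (median 27100000) and from 28400000 to 31600000 in ERα-/-.GFP+ MECs (median 30000000). The range was wider in ERα-/-.GFP+ MECs. Sdc4 had the highest quotient there, 31600000, followed by Bcam and Tinagl1 at 31100000 each. For Sdc4 the count ratio was 0.433 and the CPM ratio 0.372. Csad and Bag2 had the lowest quotient, 28400000 each, and in Bag2 the count ratio of 0.512 lay close to the CPM ratio of 0.494. Which samples were high or low cannot be read from the means.

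**Figure D5:**
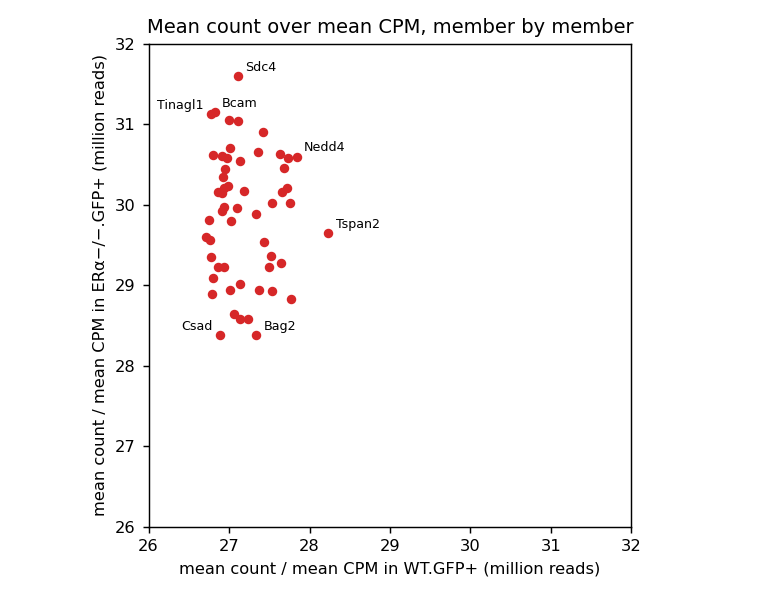
Mean count divided by mean CPM of each member in WT.GFP+ (x axis) and ERα-/-.GFP+ (y axis) MECs, on equal scales in reads. Points spread further along the y axis, from 28400000 in Csad and Bag2 to 31600000 in Sdc4, than along the x axis, from 26700000 to 28200000.

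The 66 abundant genes with a count ratio under 0.40, drawn with the same names left out, differed from the members in ratio by construction (CPM ratio 0.236 to 0.372, median 0.304). Their median level in WT.GFP+ MECs was 76.4 CPM against 69.2 in the members, and their median exonic length 4.42 kb against 4.77 kb. They held 0.811% of WT.GFP+ reads and 0.248% of ERα-/-.GFP+ reads. Of the 66, 1 was a pseudogene, against 4 of the 55 members. The 12 genes left out by name had a median CPM ratio of 0.399, near the members' 0.405. The selection on the same contrast allowed no test of these differences.

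Counts over fixed gene lists are given as description, and the lists do not hold every gene of a function. Of 31 cell-matrix receptors and linkers, 5 were listed, all lower, and 4 of these were members (Sdc4, Cd9, Fermt2, Bcam), the other being Dst, with a median CPM ratio of 0.367 over the 5. The integrin Itga3, which the rule left out by name, was also lower (CPM ratio 0.374) but is not on this list. Of 35 contractile and smooth muscle partners, 17 were listed, all lower (median 0.322), and 4 were members (Csrp1, Actn1, Pdlim7, Ppp1r12b). Of 32 redox and stress response genes, 3 were lower, the members Hspb1 and Sfn and also Cryab. On the list of 37 matrix genes, Agrn was the only member of 3 lower. That list leaves out the members Tinagl1 and Mgp (CPM ratios 0.366 and 0.404) and the lower genes Fmod and Lamb3. Tinagl1 was the only member of 4 lower among 29 proteases and protease inhibitors, to which it is related in sequence. Lgr6 was the only member of 2 lower among 18 Wnt pathway modifiers. No member came from the lists of IGF (2 lower of 12), Notch (3 of 21) or TGF-β and BMP genes (3 of 29). Nor did one come from the receptor tyrosine kinase (2 of 24, the ligands Pdgfa and Tgfa) or small GTPase lists (1 of 24). The members Bambi, Fam83g, Vegfa and Arhgap23 are on none of these lists, so this describes the lists and not the functions. No member was among the ERα target genes (2 lower of 16, Pgr and Celsr2), but Celsr2 met both limits of the rule and was left out by name. The S100 list held no member either, and 1 of its 13 genes (S100a4) was listed, as higher. Every listed gene of these lists other than S100a4 was lower, beside 86.9% of all listed genes. The level of a gene in neither table is not known here.

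Some markers of cell types were among the listed genes, with basal ones lower and leukocyte ones higher in ERα-/-.GFP+ MECs. Of 21 basal and myoepithelial markers 16 were listed, all lower, with a summed level of 7369 CPM (WT.GFP+) and 1856 CPM (ERα-/-.GFP+) and a median CPM ratio of 0.263. The members' median of 0.405 cannot be read against this, since the rule set their ratio and left keratins, actins and myosins out by name. Of 18 luminal markers Pgr alone was listed, as lower, and of 16 milk genes 0. In the other direction 6 of 18 T-cell markers (summed 887 and 1900 CPM), 5 of 14 cytotoxic cell markers (2158 and 4911 CPM) and 4 of 10 pan-leukocyte markers (1313 and 2743 CPM) were higher in ERα-/-.GFP+ MECs. These are markers of leukocytes. Antibodies to CD45, CD31 and Ter119 appear in the study's cell sorting methods, while its account of the sequenced cells names the GFP sort. None of the 14 myeloid, 8 fibroblast or 8 endothelial markers was listed, and 1 of 7 adipocyte markers (Plin4) was lower. The part of these cell types in the values of the members was not tested.

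Promoters from RefSeq (GRCm38.p6), 250 bases before to 50 bases after a start site, were found for 39 members, with 60 promoters in all. Among those with none were Cd9-ps, Fosl1, Nrep, Eogt, RP23-332I1.7, Hsp25-ps1, Esrp1, Ptov1, Nedd4l, Mgp, Bambi, Cadm1, Arhgap23, Gm37358 and Tmem158. The median GC content was 61.5% for the members, 60.3% for the 66 genes of a lower ratio and 52.7% for all 32841 promoters. The GC box GGGCGG, bound by Sp1, was found on either strand in 61.7% of the members' promoters, 58.2% of those of the 66 genes and 35.7% of all. The full palindromic oestrogen response element was found in 0 of the 60, 0 of the 79 promoters of the 66 genes and 23 of all 32841 (0.0700%). The AP-1 site TGANTCA was found in 6.67%, 15.2% and 7.81% of these 3 sets, the TEAD site GGAATG in 11.7%, 17.7% and 14.7%, TATAAA in 10.0%, 6.33% and 13.6% and CCAAT in 28.3%, 29.1% and 37.4%. The CArG box, bound by serum response factor, was found in 3.33%, 3.80% and 1.63% and a p53 family motif in 3 of 60, 8 of 79 and 2745 of 32841 promoters. A match is a description of letters and not a site of binding, and the windows hold no distal elements.

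The 250 bases before a start site are shown for Errfi1 as the member with the most reads, for Fermt2 as 1 of 2 members with a CArG box beside Cbr2, and for Yap1, whose protein acts through TEAD factors, as 1 of 7 with a TEAD site. They are read on the gene's strand, 5′ to 3′, with matches on either strand in capitals. The Errfi1 stretch at chr4:150854820-150855069 on the plus strand holds 3 GC boxes, of which 2 overlap, 1 CCAAT and 1 TATAAA. This promoter of Errfi1 was chosen for its TATAAA. Another Errfi1 promoter, at chr4:150853546-150853845 and not shown, held a TEAD site and no GC box, CCAAT or TATAAA.
Errfi1: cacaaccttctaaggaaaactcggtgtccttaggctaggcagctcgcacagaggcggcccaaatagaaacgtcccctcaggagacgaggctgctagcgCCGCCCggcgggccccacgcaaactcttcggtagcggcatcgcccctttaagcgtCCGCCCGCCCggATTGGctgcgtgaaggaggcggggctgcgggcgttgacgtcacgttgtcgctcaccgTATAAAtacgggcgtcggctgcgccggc
The Fermt2 stretch at chr14:45530066-45530315 on the minus strand holds 5 GC boxes and 1 CArG box.
Fermt2: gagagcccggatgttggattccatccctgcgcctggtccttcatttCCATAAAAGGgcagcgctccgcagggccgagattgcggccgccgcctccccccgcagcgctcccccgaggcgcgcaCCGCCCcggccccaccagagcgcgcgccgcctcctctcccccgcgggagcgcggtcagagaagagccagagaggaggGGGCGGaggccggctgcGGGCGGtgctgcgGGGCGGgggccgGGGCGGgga
The Yap1 stretch at chr9:8004597-8004846 on the minus strand holds 2 GC boxes and 1 TEAD site.
Yap1: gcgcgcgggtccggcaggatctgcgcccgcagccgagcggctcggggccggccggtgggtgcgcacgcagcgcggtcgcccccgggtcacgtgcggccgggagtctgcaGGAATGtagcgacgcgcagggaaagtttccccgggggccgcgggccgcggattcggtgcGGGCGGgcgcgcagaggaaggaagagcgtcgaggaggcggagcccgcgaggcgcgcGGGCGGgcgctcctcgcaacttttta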

How the data were processed

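RNA of GFP+ cells from 3 WT.GFP+ samples (labelled 2, 3 and 5) and 3 ERα-/-.GFP+ samples (2, 4 and 6) was amplified with an oligo dT, template-switching kit and sequenced as single-end reads of 85 bases. Per the labels and the study's methods, the authors aligned reads to mm10 with HTSstation, kept top expressed genes and ran edgeR in ASAP. The counter, the annotation and the use of strand are not given in the sources used here. The deposited tables hold the genes past the authors' thresholds, with the mean raw count of each genotype and a mean log2 CPM, which the authors scaled for library size. Labels and methods do not say whether the samples came from separate hosts.

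CPM was taken as 2 to the power of the deposited log2 value, so it is a geometric mean. Depth was the median of mean count over mean CPM for genes with at least 1000 reads (220 for WT.GFP+, 140 for ERα-/-.GFP+) and is approximate. Count ratios have exact 95% Clopper-Pearson intervals, which treat amplified reads as independent. Exonic lengths, positions and biotypes came from GENCODE M21 (GRCm38), matched by identifier for 650 of 651 genes. Pseudogenes were aligned to the coding gene that shares most 20-base words. Computation used biopython 1.88, scipy 1.17.1, pandas 2.3.3, numpy 2.4.6 and matplotlib 3.10.9 under Python 3.11.15, and scripts were tested on simulated data. The 3 columns of the authors' own comparison (fold change, p-value and FDR) were not used.

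The members and gene lists were chosen with earlier results of these data known, and roles were assigned after the names were seen. The members are named, other than 1 that is not reported by name here. Values are given in full for the 12 highest by CPM in WT.GFP+ MECs, list members, the 3 highest and 3 lowest count ratios and genes at the limits. Alternatives were other count and ratio limits, other scaling, no names left out, and omission of shared sequence or of the highest member.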

Additional observations from a re-analysis of the deposited data

How the results depend on the processing

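The number of members, 55, was 30 when the CPM ratio replaced the count ratio within the same limits, 26 with a minimum of 2000 reads, 91 with 500 reads and 27 with ratio limits of 0.45 to 0.60. With no names left out there were 67, and 54 without the member whose 85-base stretches are mostly shared, an alternative chosen after seeing the data. The median CPM ratio of 0.405 became 0.391 with a minimum of 2000 reads and 0.407 without that shared member. In its place, the ratio of mean counts had a median of 0.449 unscaled and of 0.413 when scaled by depth from genes of at least 100 reads. The share of reads, 0.739% with ERα and 0.315% without it, became 0.738 and 0.312% with the other depth and 0.635% and 0.265% without Errfi1. The cause of these shifts lies in the construction of each alternative.

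No paired analysis was possible because the genotypes share only replicate number 2 in the labels and the deposited columns are means. Leaving out single replicates was not possible with means alone. Counting error is small (the upper bound of a member's interval is 1.02 to 1.14 times the lower), so that depth does not limit the ratios, while the spread between samples is unknown.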
